A study of Mus musculus with 18 samples.

Results

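Experiment 2 followed the entry of newly made mRNA into ribosomes over the first 20, 30 and 40 min after cells were given 4-thiouridine (4sU), which new RNA takes up in place of uridine and which sequencing reads as a T-to-C conversion after chemical treatment. The cells were RAW264.7, a mouse macrophage-like line, given 4sU in every library used for the main comparisons, with no genotype or further treatment named in the labels. Lysates contained cycloheximide, which halts elongating ribosomes. The input was about 10% of each lysate, fragmented by alkali, and footprints were monosomes cut out by RNase I, both depleted of ribosomal RNA. Each of the 3 lysates, 1 per labelling time, gave 1 library of cytoplasmic input RNA and 1 library of ribosome footprints, so 6 of the 18 libraries of the series enter. The series also holds experiment 1, from which the 20 and 40 min lysates served as a second measurement and the unlabelled lysate, the one with 0 min of 4sU, as the background. Genes were taken if they had a mean of at least 100 reads over the 6 libraries, which 9436 of 14002 genes had. Of these, 8120 also had at least 20 converted reads in all and were tested, and 2298 (24.4% of the 9436) had at least 20 reads with 2 or more conversions. Both limits were applied to input and footprints summed, so a gene could meet them through 1 material alone. The lysates stand for different labelling times, and the labels do not say whether they came from separate cultures, so each p-value reflects the scatter among 3 lysates, which may be technical. The 10 macrophage markers checked, among them Cd68, Lyz2 and Adgre1, all had a mean of at least 100 reads, summing to 7246 to 7742 CPM in input and 12043 to 12668 in footprints. Of 39 markers of other cell types, 23 had no read, and all 39 together summed to 4.18 to 6.30 CPM.

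A new mRNA is capped, spliced, polyadenylated and exported before cytoplasmic ribosomes can load on it, and a ribosome then shields about as much RNA as is read here as a footprint. Most replication-dependent histone mRNAs have no introns and no poly(A) tail, and end in a short stem-loop. Mitochondrially encoded mRNAs are made and translated inside the mitochondrion and never pass the nuclear envelope. The transcripts of several splicing regulators are known to be held in the nucleus with an intron retained.

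New RNA was scarcer in footprints than in input in every lysate. With 1 or more conversions, 0.813, 1.72 and 1.99% of input reads were converted at 20, 30 and 40 min, against 0.313, 0.501 and 0.872% of footprint reads. The unlabelled lysate of experiment 1 gave 0.289% in input and 0.298% in footprints by the same count. The 20 min footprints stood barely above that level. Experiment 2 had no unlabelled lysate, so its own level without label was not measured and may differ. With 2 or more conversions, the shares were 0.0635, 0.261 and 0.359% in input and 0.00826, 0.0288 and 0.0648% in footprints, and without label 0.00288% and 0.00161%. Every one of the 6 libraries was therefore above the unlabelled level by that stricter count, and the share at 40 min in footprints lay close to the share at 20 min in input.

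The odds ratio used here is the odds that a footprint read is converted, divided by the same odds in the input of the same lysate. Its log2 value was −1.38, −1.80 and −1.21 at 20, 30 and 40 min with 1 or more conversions, a mean of −1.46 ± 0.30 (SD, n = 3 lysates). With 2 or more conversions it was −2.94, −3.18 and −2.47, a mean of −2.87 ± 0.36 (SD, n = 3). All 3 lysates lay on 1 side, and the exact two-sided sign-flip test gave p = 0.25 for each count, the smallest value that 3 lysates allow. The 20 and 40 min lysates of experiment 1 gave −2.07 and −1.19 with 2 or more conversions, so footprints were below input there too, by less.

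**Figure D1:**
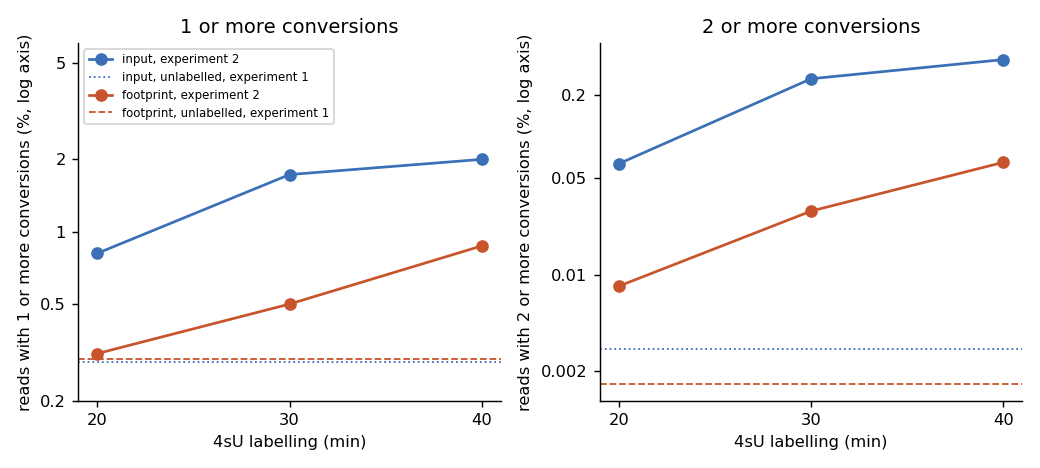
Share of reads with conversions (percent, log axis) against minutes of 4sU in experiment 2, for 1 or more conversions (left) and 2 or more (right), 1 library per point. Horizontal lines mark the unlabelled lysate of experiment 1; the 20 min footprints lie near that line on the left (0.313% against 0.298%) and above it on the right (0.00826% against 0.00161%).

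In the test of each gene, 5977 of 8120 genes (73.6%) had lower odds of a converted read in footprints than in input and 13 (0.16%) had higher odds, by edgeR's quasi-likelihood test with Benjamini-Hochberg adjusted p under 0.05. Without the genes that had 1% or more converted reads in an unlabelled library, 1 gene was on the higher side. Subtracting each gene's unlabelled share left 2289 lower and 1 higher by limma. A fit that ignored which lysate a library came from left 0 in each direction. Each lysate is 1 labelling time, so that fit also left the rise of conversion with time in the residual scatter. Here and below, the unlabelled share of a gene came from experiment 1. It was taken after adding 1000 reads at the library's unlabelled rate to the gene's reads. For genes with few unlabelled reads, the share subtracted was thus mostly that of the library.

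To ask which new mRNAs were ahead of or behind the rest, each gene's log2 odds ratio was set against that of its library as a whole, so that 0 stands for the library's own deficit. By 1 or more conversions, 576 genes (7.09%) were higher than the library and 142 (1.75%) lower, with a median over genes of 0.14. The split rests on where the zero is put: library totals without mitochondrial and histone genes gave 357 higher and 331 lower and moved the median to −0.06, and TMM factors gave 368 and 272. Subtracting each gene's unlabelled share left 1 higher and 0 lower by limma, so the calls by 1 or more conversions ended there. Among the 576, 277 had 1% or more converted reads without any label, against 4 of the 142 and 1032 of all 8120 tested. Leaving all such genes out gave 271 higher and 132 lower. By 2 or more conversions, 111 of 2298 genes (4.83%) were ahead of the library and 31 (1.35%) behind it. The median gene stood at 0.01, or at 0.12 with the 181 genes without such a footprint read set to the bound that 3 counts give. That bound is an upper limit and not an estimate, and it lay above 0 for many of these genes. Medians and correlations that use it are thus no better estimates than the fitted ones. Library totals without mitochondrial and histone genes gave 84 and 42, with a median of −0.18. Without the lysate term, and so without both pairing and labelling time, 54 were higher and 9 lower. Centring genes on others of like labelling left 13 and 16 by limma. Without the 30 min lysate, 12 were higher and 1 lower. Of these 111, 14 had 1% or more converted reads without label. The results below are led by the count of 2 or more conversions, with list counts by 1 or more given as well. For the 6 lists whose calls lead the text, the counts with other zeros are given too: the median gene as zero, and each gene centred on its decile of labelling in experiment 1 input. Both are limma fits, and limma with the library as zero called 367 higher and 71 lower by 1 or more conversions and 50 and 11 by 2 or more. In that fit the higher calls by 1 or more and by 2 or more conversions were 30 and 16 histones, 5 and 10 mitochondrially encoded mRNAs, 8 and 1 immediate-early regulators, 3 and 2 inflammatory genes and 30 and 5 ribosomal proteins. The lower calls were 11 and 1 retained-intron and splicing kinase genes.

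Of the 111 genes ahead, 72 belonged to 5 lists: replication-dependent histones, mitochondrially encoded mRNAs, immediate-early regulators, inflammatory genes and cytosolic ribosomal proteins. In the same order, these lists held 46, 13, 29, 23 and 66 of the 2298 tested genes. The lists were chosen with earlier results of these data known. The relative log2 odds ratio had the same sign in all 3 lysates for 106 of the 111 genes ahead and for 22 of the 31 behind. The calls were made on these same lysates, so the selection favours a shared sign and these counts are no separate support. Genes ahead had a median coding length of 666 bases and genes behind one of 1932 bases, against 1416 over the tested genes.

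Replication-dependent histones were the list furthest ahead, with 30 of 46 tested members higher, none lower and a median relative log2 odds ratio of 1.46, against 0.01 over all 2298 genes. Without the 30 min lysate 5 were higher. Counting 1 or more conversions, 41 of 54 were higher and none lower (median 0.79, against 0.14 over all genes), 16 with the median gene as zero and 21 centred by decile. Centring by decile left 2 higher by 2 or more conversions. Summed over the list, reads with 2 or more conversions made up 0.344, 0.739 and 0.918% of input at 20, 30 and 40 min and 0.152, 0.278 and 0.390% of footprints. After subtraction of the unlabelled share, the footprint share was thus 0.441, 0.376 and 0.425 of the input share, where over all genes it was 0.110, 0.105 and 0.178. Histone reads held a median of 4.95 T positions in input and 5.54 in footprints, a wider gap than the 6.48 and 6.67 of all genes. With converted reads standardised for T positions, 18 histones were higher (median 1.06), instead of 30. Histone genes are near-identical copies, so values of single copies can share reads and are uncertain.

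The stem-loop that ends these mRNAs is shown for 4 histones ahead by 2 or more conversions, 1 each of the H2A, H2B, H3 and H4 families. Both stem arms are in capitals and the loop between them in lower case, 5′ to 3′ on the transcript, from GENCODE vM21 on GRCm38.
Hist1h2ae, chr13:23570663-23570688, minus strand: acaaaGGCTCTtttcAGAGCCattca
Hist1h2bb, chr13:23747198-23747223, plus strand: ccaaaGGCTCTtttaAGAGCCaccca
Hist1h3g, chr13:23535884-23535909, plus strand: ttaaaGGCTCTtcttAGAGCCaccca
Hist1h4n, chr13:21831793-21831818, minus strand: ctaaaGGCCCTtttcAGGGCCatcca

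All 4 runs lie in the 3′ untranslated region of single-exon transcripts. The search, on the transcript strand only, took any 16-base run whose first 6 and last 6 bases pair as a stem that begins GG, with a 4-base loop that begins T. It found the run after the coding sequence in 44 of 66 annotated histone genes of the list (66.7%), and anywhere in a protein-coding transcript of 416 of 21811 other genes (1.91%). Among tested histones, 25 of 36 with the run were higher (median 1.55), and 5 of 10 without it in their annotated transcript (median 1.22).

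Hist1h2ae, an H2A gene, had 0.209, 0.527 and 0.844% of input reads with 2 or more conversions at 20, 30 and 40 min, and 0.396, 0.461 and 1.02% of its footprint reads. Its footprints were above its input at 20 and 40 min and below at 30 min, where the libraries as a whole were far below at all times. The relative log2 odds ratio was 3.15 ± 0.47 (SE from the fit, n = 3 lysates; edgeR adjusted p = 8.1e-09), and 1.81 in experiment 1. Hist1h2bb, an H2B gene, had 0.531, 1.35 and 1.59% in input and 0.374, 0.587 and 0.830% in footprints (1.96 ± 0.29; adjusted p = 8.1e-09; 2.01 in experiment 1). Hist1h3g, an H3 gene, had 0.723, 1.00 and 1.51% in input and 0.225, 1.05 and 0.840% in footprints (2.18 ± 0.40; adjusted p = 6.2e-06). Only its 30 min footprints passed the input of the same lysate. Hist1h4n, an H4 gene, rested on 3, 8 and 4 such reads in input against 34, 72 and 53 in footprints, and its ratio of 2.11 ± 0.52 (adjusted p = 0.0018) was −0.27 in experiment 1. Hist1h3i was higher by 1 or more conversions (1.15 ± 0.23; adjusted p = 2.7e-04) and did not pass with 2 or more (1.44 ± 0.55; adjusted p = 0.10).

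Mitochondrially encoded mRNAs were ahead as a group, with 11 of 13 higher, none lower and a median of 1.15, all 13 above 0 in both experiments. Without the 30 min lysate 1 was higher. With 1 or more conversions 8 of 13 were higher (median 0.53), 2 when library totals left out mitochondrial and histone genes, and 0 with the median gene as zero or centred by decile. By 2 or more conversions the count was 11 with those library totals and 0 centred by decile. These mRNAs supplied 14545 of the 30560 input reads with 2 or more conversions at 20 min, and 438 of the 4937 footprint reads, so they are a large part of the input total. In all, they had 2470325, 1879254 and 951121 reads in input at 20, 30 and 40 min, and 189080, 179874 and 217984 in footprints. The libraries held 48139330, 38829580 and 26359243 reads in input and 59738585, 87536081 and 29065324 in footprints. Mitochondrially encoded mRNAs were thus a far smaller part of footprints than of input. They are translated by mitochondrial ribosomes, and whether their few footprint reads came from monosomes of that kind was not tested.

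Among the subunits of complex I, mt-Nd4l had 1.20, 3.67 and 5.21% of input reads with 2 or more conversions and 0.821, 2.39 and 1.73% of footprint reads. Its footprint share was highest at 30 min, while its input share was highest at 40 min, and the relative log2 odds ratio was 1.90 ± 0.33 (SE, n = 3; edgeR adjusted p = 1.5e-06). Its frame overlaps mt-Nd4, so reads there cannot be assigned to one of them. For mt-Nd2 the shares were 1.55, 3.92 and 4.78% in input and 0.974, 1.30 and 1.65% in footprints (1.55 ± 0.25; adjusted p = 2.0e-07). For mt-Nd3 they were 1.77, 4.18 and 5.92% and 0.781, 1.97 and 2.15% (1.57 ± 0.27; adjusted p = 1.5e-06). Footprints stayed below input in every lysate for both, by less than in the libraries as a whole. The ATP synthase subunit mt-Atp6 was ahead by less, at 1.11 ± 0.27 (adjusted p = 0.0012), and its frame overlaps mt-Atp8 and mt-Co3.

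Immediate-early regulators, the transcription factors and feedback genes that cells switch on within minutes of a signal, had 8 of 29 tested members higher and none lower, with a median of 1.12 and all 29 values above 0. Leaving out the 30 min lysate left 0 higher, and the 40 min lysate 2. The looser count had 11 of 46 higher (median 0.64), 6 with library totals without mitochondrial and histone genes, 4 with the median gene as zero and 2 centred by decile. Centring by decile left 0 higher by 2 or more conversions. In experiment 1, 10 of 12 were above 0 (median 0.67). Their input had 0.412, 1.74 and 2.71% of reads at 2 or more conversions, and their footprints 0.171, 0.672 and 1.04%. After background subtraction the footprint share was 0.415, 0.386 and 0.385 of the input share, more than 2 times that of all genes at each time.

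Fos, a subunit of the AP-1 transcription factor, had 1.59, 4.08 and 7.57% of input reads with 2 or more conversions and 0.710, 2.33 and 2.33% of footprint reads. Input was higher at 40 than at 30 min while the footprint share was level, and the relative log2 odds ratio over all lysates was 1.64 ± 0.39 (SE, n = 3; edgeR adjusted p = 0.0011). Ier3, a short-lived stress response protein, had 1.05, 6.04 and 9.07% in input and 1.04, 2.11 and 3.28% in footprints (1.59 ± 0.42; adjusted p = 0.0042). At 20 min its footprints were level with its input.

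Inflammatory and NF-kB feedback genes had 6 of 23 members higher and none lower (median 0.82, or 0.86 with the 1 member that had no such footprint read at its bound). The looser count had 4 of 36 higher (median 0.43), and 1 with the median gene as zero. Centring by decile left 0 higher by 2 or more conversions, and 1 higher and 1 lower by the looser count. Most members did not pass, and 15 of 23 were above 0. Leaving out the 30 min lysate left 0 higher, and the 40 min lysate 3. Tnf, the cytokine tumour necrosis factor, had 2.20, 6.30 and 9.57% of input reads with 2 or more conversions and 1.22, 3.18 and 3.50% of footprint reads (1.70 ± 0.32; adjusted p = 9.1e-06; 0.87 in experiment 1). Nfkbia, which encodes the NF-kB inhibitor that NF-kB itself induces, had 0.296, 3.03 and 5.80% in input and 0.166, 1.07 and 2.49% in footprints (1.55 ± 0.30; adjusted p = 1.8e-05; 1.47 in experiment 1). In both genes footprints were below input in every lysate, by less than in the libraries as a whole. The chemokine genes Ccl3 (1.07 ± 0.32; adjusted p = 0.021) and Ccl4 (1.34 ± 0.41; adjusted p = 0.023) were also ahead, and Ccl3 was at −0.08 in experiment 1 and −0.057 after centring on genes of like labelling.

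Cytosolic ribosomal proteins had 17 of 66 members higher, none lower and a median of 0.84, with 63 values above 0. Without the 30 min lysate 1 was higher. Counting 1 or more conversions, 52 of 72 were higher, none lower and the median was 0.64. In experiment 1, 55 of 61 were above 0 by 2 or more conversions (median 0.63). These are stable, slowly replaced mRNAs, and their input shares were low at 0.0269, 0.116 and 0.180%, with 0.00592, 0.0268 and 0.0520% in footprints. Footprints thus held 0.207, 0.227 and 0.288 of the input share after background subtraction. The count depends on the zero: with library totals that leave out mitochondrial and histone reads it was 10 higher and 1 lower by 2 or more conversions, and 27 higher and 1 lower by 1 or more. With the median gene as zero 5 of the 72 were higher. Centred by decile, 4 were higher and 1 lower by 1 or more conversions, and 1 higher and 1 lower by 2 or more. With converted reads standardised for T positions, 9 were higher by 2 or more conversions, instead of 17.

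Rpsa, a small-subunit protein at chr9:120127689-120132369 (plus strand, GRCm38), had 0.0271, 0.111 and 0.147% of input reads with 2 or more conversions and 0.0113, 0.0465 and 0.117% of footprint reads. Footprints lay below input at each time and came closest to it at 40 min (1.96 ± 0.32; SE, n = 3; edgeR adjusted p = 2.4e-07; 1.75 in experiment 1). Rplp0, a stalk protein of the large subunit, had 0.0303, 0.117 and 0.178% in input and 0.0173, 0.0522 and 0.104% in footprints (1.92 ± 0.33; adjusted p = 1.1e-06). Rps20 (1.71 ± 0.37; adjusted p = 2.1e-04) and Rps2 (1.65 ± 0.41; adjusted p = 0.0018) were similarly placed. The annotation names 9 pseudogenes of Rpsa and 11 of Rps2, which could share reads with them.

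Other mRNAs with a terminal oligopyrimidine tract, the 5′ element shared with ribosomal proteins, had 2 of 22 higher, 1 lower and a median of 0.10. Counting 1 or more conversions, 6 of 24 were higher, 1 lower, 21 above 0 and the median was 0.36, with 20 of 24 above 0 in experiment 1. Centred by decile, 0 were higher and 1 lower by that count. Tpt1, a translationally controlled protein, had 0.0206, 0.192 and 0.189% in input and 0.0140, 0.0611 and 0.123% in footprints (1.78 ± 0.35; edgeR adjusted p = 3.9e-05), and has 6 named pseudogenes. Eef1a1, which carries aminoacyl-tRNA to the ribosome, was ahead by less (0.87 ± 0.22, edgeR adjusted p = 0.0028). By 1 or more conversions it turned to −1.97 when the unlabelled share of the library was subtracted, which did not pass by limma. Hnrnpa1, an RNA-binding protein that shuttles between nucleus and cytoplasm, lay on the other side, with 0.0702, 0.428 and 0.555% in input and 0.00204, 0.0266 and 0.0411% in footprints (−1.15 ± 0.35; adjusted p = 0.020; −0.53 in experiment 1). Pabpc1, the poly(A)-binding protein, was higher by 1 or more conversions (0.87 ± 0.15; adjusted p = 3.1e-05) and did not pass with 2 or more (1.01 ± 0.43; adjusted p = 0.16).

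**Figure D2:**
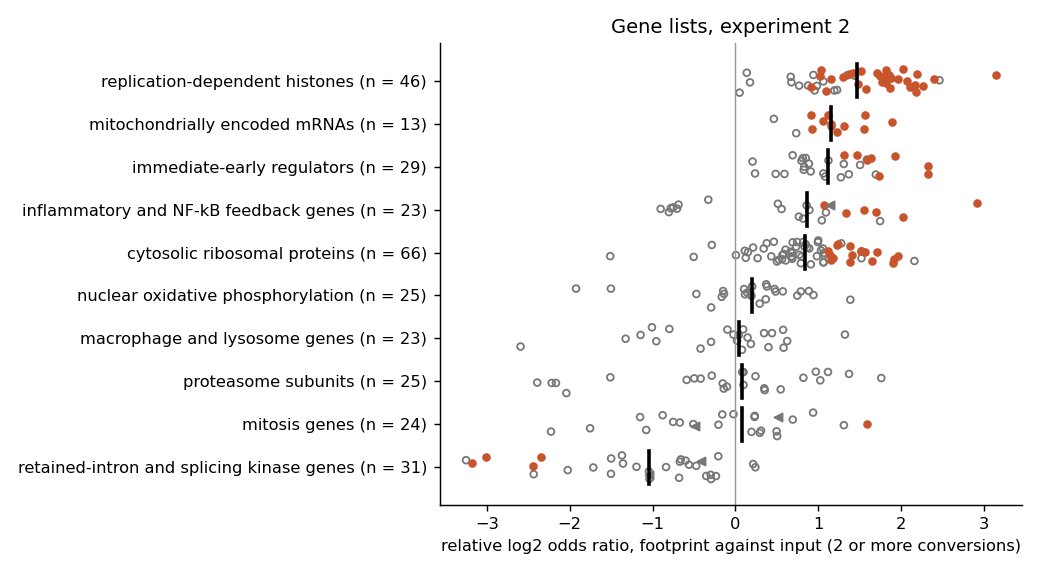
Relative log2 odds ratio of footprints against input (2 or more conversions) for the tested genes of 10 lists in experiment 2. Filled points passed the test and open points did not. Triangles are genes with no such footprint read, drawn at the upper limit that 3 counts give, and black bars are medians with these bounds. Histones sit furthest to the right (median 1.46) and retained-intron and splicing kinase genes furthest to the left (−1.04).

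Retained-intron and splicing kinase genes were the list furthest behind, with 4 of 31 lower, none higher and a median of −1.04, and 2 of 31 values above 0. Without the 30 min lysate 1 was lower, as without the 40 min lysate. Counting 1 or more conversions, 14 of 34 were lower, none higher, and the median was −0.59. With the median gene as zero, and centred by decile, 12 were lower by that count, and centring by decile left 2 lower by 2 or more conversions. In experiment 1 all 9 measured members were below 0 by 2 or more conversions (median −0.83), and 27 of 31 by 1 or more, where 4 were above. Summed over the list, input had 0.0410, 0.340 and 0.508% of reads with 2 or more conversions, above the libraries as a whole from 30 min on, while footprints had 0.00267, 0.0128 and 0.0418%, below them at all 3 times. The footprint share was 0.0365, 0.0343 and 0.0802 of the input share after background subtraction.

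Ddx5, an RNA helicase of splicing and transcription at chr11:106780355-106789185 (minus strand, GRCm38), had 36, 113 and 114 input reads with 2 or more conversions, or 0.0642, 0.262 and 0.359%. Its footprints, 105496, 175054 and 47272 reads deep, held 2, 6 and 3 such reads, or 0.00190, 0.00343 and 0.00635%. Footprints were deeper than input in every lysate and held far fewer new reads. The relative log2 odds ratio was −3.01 ± 0.47 (SE, n = 3; edgeR adjusted p = 5.3e-08), −3.20 in experiment 1, and −0.86 ± 0.15 (adjusted p = 2.0e-05) by 1 or more conversions. Srsf5, a splicing factor, had 0.00696, 0.314 and 0.493% in input and 0, 0.00934 and 0.00767% in footprints (−2.45 ± 0.72; adjusted p = 0.016), with −0.05 in experiment 1. Hnrnph1, an RNA-binding protein of splicing, also passed (−3.18 ± 0.79; adjusted p = 0.0022), with 7, 34 and 34 such reads in input and 1, 2 and 0 in footprints, and did not pass by 1 or more conversions.

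Srsf10, another splicing factor, was lower by 1 or more conversions, with 1.01, 2.61 and 2.99% in input and 0.103, 0.268 and 0.759% in footprints (−1.34 ± 0.25; adjusted p = 5.5e-05), and did not pass with 2 or more (−1.72 ± 0.72; adjusted p = 0.15). Rbm39, a splicing factor related to U2AF, had 1.06, 3.63 and 4.28% in input and 0.263, 0.307 and 0.937% in footprints (−1.24 ± 0.17; adjusted p = 1.8e-07). With 2 or more conversions it stood at −0.66 ± 0.45 (adjusted p = 0.44), where the lysates gave 0.25, −1.77 and 0.16 at 20, 30 and 40 min.

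**Figure D3:**
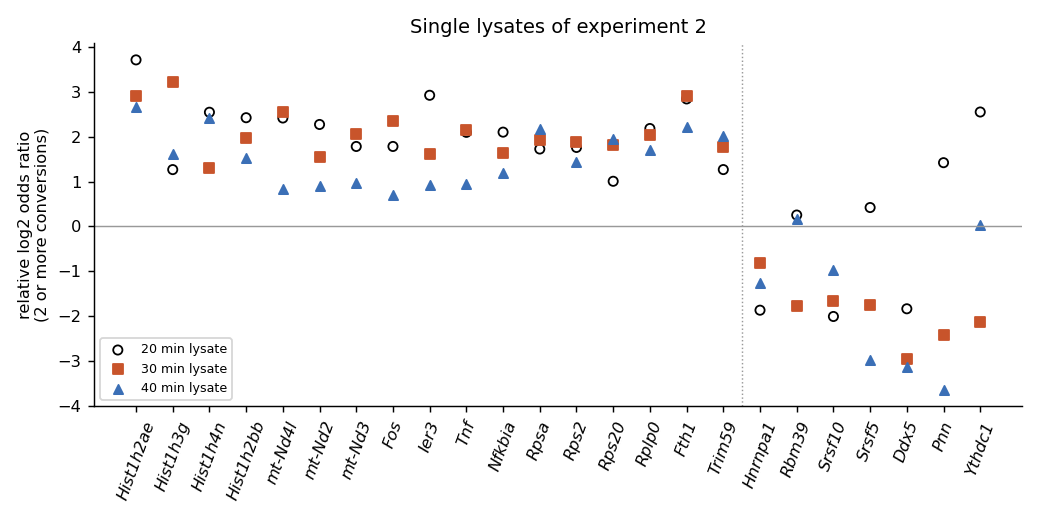
Relative log2 odds ratio (2 or more conversions, 0.5 added to each count) in the 20, 30 and 40 min lysates of experiment 2 for 17 genes ahead by 1 or more conversions (left of the dotted line) and 7 behind (right). Every point on the left is above 0; on the right Hnrnpa1, Srsf10 and Ddx5 are below 0 in every lysate, and Rbm39, Srsf5, Pnn and Ythdc1 are not.

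Called genes were ranked by 1 or more conversions if little converted without label. They also needed 1 sign in each lysate, with 2 or more conversions and centred by decile. This left out genes not tested by 2 or more conversions, such as Ndufa12 (2.19 by 1 or more). The 12 highest were 4 histones (Hist1h4n, Hist1h2ae, Hist1h3g and Hist1h3i), Rpsa, Rps2, Tnf, Fos, Ier3, Fth1, Rad23b and Trim59. Fth1, the ferritin heavy chain at chr19:9980598-9985098 (plus strand, GRCm38), had 0.0453, 0.187 and 0.307% of input reads with 2 or more conversions and 0.0408, 0.155 and 0.256% of footprint reads. New Fth1 was nearly as frequent on ribosomes as in input in every lysate, with a relative log2 odds ratio of 2.62 ± 0.31 (SE, n = 3; edgeR adjusted p = 1.1e-13) and 1.92 in experiment 1. Its mRNA is known for iron-controlled translation through a 5′ element. Trim59, a ubiquitin ligase, had 0.732, 3.86 and 1.66% in input and 0.206, 1.49 and 1.17% in footprints (1.70 ± 0.50; adjusted p = 0.016). Rad23b, a DNA repair and proteasome shuttle protein, was at 1.31 ± 0.15 by 1 or more conversions (adjusted p = 3.0e-09) and 0.44 ± 0.60 with 2 or more (adjusted p = 0.75), where its footprints held 1, 8 and 6 such reads. With its unlabelled share subtracted, the value by 1 or more conversions was −0.42 and did not pass by limma.

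The 12 lowest by the same rule were Fancb, Naa16, Pnn, Kdm6a, Ythdc1, Cstf2t, Mettl2, Epm2aip1, Alkbh1, Pigw, Pikfyve and Atad5. Most were thinly covered, and apart from Pnn none had more than the 24 converted footprint reads that Ythdc1 had at 30 min. Pnn, pinin of the exon junction and splicing machinery, had 0.977, 2.94 and 3.99% of input reads converted and 0.123, 0.190 and 0.695% of footprint reads (−1.76 ± 0.25; SE, n = 3; edgeR adjusted p = 3.1e-07; −1.97 in experiment 1). Ythdc1, the nuclear reader of N6-methyladenosine, had 1.04, 4.20 and 4.95% in input and 0.164, 0.376 and 0.636% in footprints (−1.68 ± 0.29; adjusted p = 2.3e-05; −1.62 in experiment 1). Both had input as labelled as that of the libraries or more. At 20 and 30 min their footprints lay below the 0.298% of the unlabelled footprint library of experiment 1, save those of Ythdc1 at 30 min. Fancb, of the Fanconi anaemia core complex, had 11, 44 and 24 converted reads in input and 0, 1 and 2 in footprints. Alkbh1, Cstf2t and Pigw overlap another coding gene, Slirp, Prkg1 and Myo19, so their reads may be shared.

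Among the 31 genes behind by 2 or more conversions were further RNA-binding proteins and helicases, chosen after their values were seen. Hnrnpa2b1, an RNA-binding protein of splicing and transport, had 130 such reads of 67755 in input and 21 of 319999 in footprints over the 3 lysates (−1.96 ± 0.44; adjusted p = 3.9e-04; −2.10 in experiment 1). Dhx9, an RNA helicase, had 314 of 49244 and 31 of 99629 (−1.76 ± 0.41; adjusted p = 7.2e-04; −1.83 in experiment 1). Tardbp, which encodes TDP-43 and represses its own mRNA, had 128 of 29018 and 15 of 84316 (−1.86 ± 0.52; adjusted p = 0.0090; −1.39 in experiment 1), and overlaps Masp2. In each of the 3 genes footprints were deeper than input and yet held fewer new reads. Dhx15, a helicase that takes spliceosomes apart, stood at −2.77 ± 0.66 (adjusted p = 0.0011), and Sf3b3, a subunit of the U2 particle, at −1.61 ± 0.49 (adjusted p = 0.020), where Sf3b3 overlaps Cog4. Mat2a, the enzyme that makes S-adenosylmethionine and whose mRNA is known for a regulated retained intron, had 323 of 29490 and 41 of 74655 (−1.53 ± 0.38; adjusted p = 0.0023), with −0.39 in experiment 1. Other genes of the 31 are not of these kinds. Among them were Pgd (−4.93 ± 1.09; adjusted p = 3.0e-04, with 1 such footprint read), Cltc (−1.47 ± 0.39; adjusted p = 0.0053), Kpnb1 (−1.93 ± 0.54; adjusted p = 0.0097) and Tfrc (−1.58 ± 0.48; adjusted p = 0.019). How many of the 31 are RNA-binding proteins or helicases was not counted. Of the 31, 6 had no footprint read with 2 or more conversions, and their fitted values are not given.

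The remaining lists had at most 3 calls each by 2 or more conversions. Macrophage and lysosome genes had none of 23 higher or lower (median 0.04), while by 1 or more conversions 11 of 54 were higher and 1 lower, and 1 higher and 0 lower centred by decile. Lyz2, the macrophage lysozyme, shows the difference between the counts: 0.401, 0.585 and 0.487% of input and 0.212, 0.228 and 0.387% of footprint reads had 1 or more conversions, against 0.227% and 0.258% without label. Its ratio of 0.59 ± 0.15 (adjusted p = 0.0065) became 0.19 ± 0.34 (adjusted p = 0.83) with 2 or more. With the unlabelled share of the gene subtracted the first turned to −4.82, which did not pass by limma (adjusted p = 0.60). Its footprint shares at 20 and 30 min lay below the unlabelled one, so no converted reads were left there. That value thus leans on the 0.5 added to each count. Other members changed sign between the counts. By 1 or more conversions Csf1r was at 0.99 (adjusted p = 7.9e-07) and Psap at 0.55 (adjusted p = 0.014). With 2 or more, where neither passed, they were at −1.14 and −2.59. Nuclear oxidative phosphorylation genes (none of 25; median 0.20), proteasome subunits (none of 25; median 0.08), glycolysis (none of 12; median 0.45) and p53 targets (none of 8; median 0.57) had no call in either direction by 2 or more conversions. The looser count had 9 of 76 oxidative phosphorylation genes higher (median 0.39, 71 above 0), 4 of 33 proteasome subunits (median 0.22), 6 of 22 glycolysis genes (median 0.43) and 0 of 20 p53 targets (median 0.31), with none lower. Centred by decile these were 2, 0, 1 and 0. Among the genes higher by the looser count, Hk2 went from 1.19 to −0.58 with 2 or more conversions and Psma1 from 0.57 to −2.04. Pgk1 (0.60 and 0.92) and Psmd2 (0.49 and 1.76) kept their sign. Cholesterol and fatty acid synthesis had none of 15 (median −0.05), while by 1 or more conversions 1 of 30 was lower, Scd2, a stearoyl-CoA desaturase (−0.94 ± 0.15; adjusted p = 3.0e-06). A single member was higher among each of heat-shock proteins (1 of 20; median 0.04; Hspa8, the constitutive HSP70 chaperone, 1.12 ± 0.22; adjusted p = 3.5e-05), mitosis genes (1 of 24; median −0.09, or 0.09 with the bound; Ube2c, which overlaps Tnnc2, the ubiquitin-conjugating enzyme of the anaphase-promoting complex, 1.59 ± 0.51; adjusted p = 0.032), mRNAs with upstream open reading frames (1 of 17; median 0.17, or 0.34 with the bound; Odc1, ornithine decarboxylase, 1.33 ± 0.42; adjusted p = 0.028), ATF4 targets (1 of 17; median −0.34) and translation factors (1 of 41; median −0.01; Eef1a1). Counting 1 or more conversions, 1 of 23 heat-shock proteins, 5 of 34 mitosis genes, 3 of 23 mRNAs with upstream open reading frames, 5 of 36 ATF4 targets and 6 of 51 translation factors were higher, and 0, 1, 0, 1 and 1 lower. The member of the ATF4 targets was Slc7a5, an amino acid transporter (2.97 ± 0.42; adjusted p = 8.6e-10), which had 2.11% converted footprint reads without label. Slc7a5 stood at −0.53 by 1 or more conversions with its unlabelled share, drawn toward that of the library, subtracted, and did not pass by limma. Slc38a2, an amino acid transporter on the same list, was lower by 1 or more conversions (−0.64 ± 0.14, edgeR adjusted p = 6.2e-04). It stood at −0.54 ± 0.31 (edgeR adjusted p = 0.36) with 2 or more. With its unlabelled share subtracted, the value by 1 or more conversions was 0.23 and did not pass by limma. Endoplasmic reticulum chaperones had 1 of 20 lower (median 0.33), and 2 of 29 higher and 0 lower by the looser count. The lower member was the lectin chaperone Canx, at −2.46 ± 0.57 (adjusted p = 8.3e-04) and at 0.03 by 1 or more conversions (adjusted p = 0.94).

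Interferon response genes had 2 of 7 higher (median 0.55) by edgeR, and 2 of 25 (median 0.17) by 1 or more conversions. Trim25, a ubiquitin ligase of RNA sensing (2.67 ± 0.31; adjusted p = 5.4e-14), had 6.0% converted input reads and 2.50% converted footprint reads without label, and Eif2ak2, the kinase PKR (2.32 ± 0.50; adjusted p = 2.4e-04), under 1% in both. Numbered zinc finger genes had 3 of 54 higher (median 0.50, or 0.58 with the bound): Zfp715, Zfp951 and Zfp958, of which Zfp951 had 10.3% and 5.26% and Zfp958 1.67% and 3.38% without label in input and footprints. Counting 1 or more conversions, 8 of 185 were higher and 1 lower (median 0.22). Zinc finger genes share repeated sequence, so their counts are uncertain.

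Shorter coding sequences went with a higher relative ratio. In 5 length classes of nearly equal size over the 2243 tested genes with an annotated length, the median went from 0.58 (150 to 723 bases) through 0.20, 0.07 and −0.12 to −0.30 (2577 to 22065 bases), with genes that had no such footprint read at their bound. The bound is an upper limit and not an estimate. The longest class had 102 of its 449 genes at the bound, all of which met the read limit through input alone. Its median in the fitted values was −1.14. The shortest class held 58 genes higher and none lower, and the longest 4 higher and 11 lower. Across genes, Spearman's correlation of coding length with the ratio was −0.41 in the fitted values and −0.29 with the bounds. In the fitted values it was −0.36 over the 2118 genes left without histones, mitochondrially encoded mRNAs and ribosomal proteins. In experiment 1, in fitted values without bounds, the medians of the same classes were 0.60, 0.27, 0.11, −0.03 and −0.39, and the correlation was −0.39 over 586 genes. Genes are not independent replicates, and T positions per input read went from a median of 6.30 in the shortest to 6.79 in the longest class. The span of the whole gene, introns included, correlated with the fitted ratio at −0.38, and the part of each length in the relation was not tested.

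**Figure D4:**
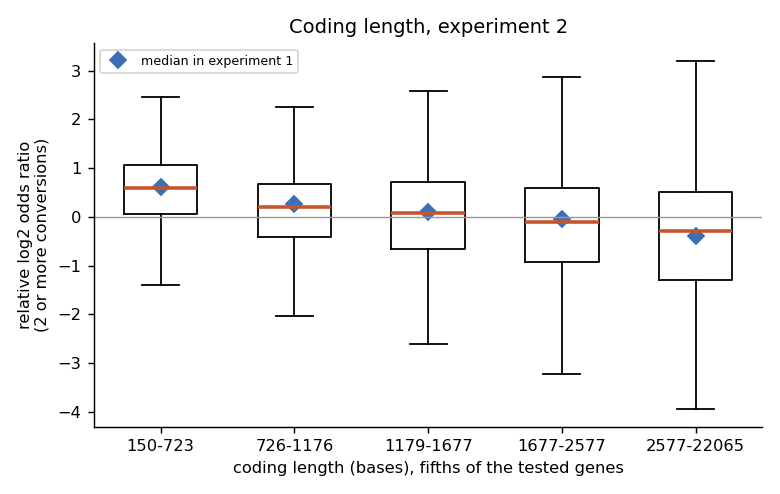
Relative log2 odds ratio (2 or more conversions) in 5 classes of the tested genes by coding length in bases; boxes span the quartiles with the median in colour, whiskers reach 1.5 box heights at most, and genes without such a footprint read are at their bound. The bounds are upper limits. Medians go from 0.58 in the shortest to −0.30 in the longest class, and diamonds give the medians of experiment 1, without bounds.

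No gene's relative ratio changed with labelling time from 20 to 40 min in edgeR's test (0% of 8120 in either direction), with 442 genes at an unadjusted p under 0.05. By 2 or more conversions the count was also 0, with 82 of 2298 at an unadjusted p under 0.05. Each time had a single lysate, which leaves little to estimate the spread.

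Experiment 1 shares no sample with experiment 2, and its 20 and 40 min lysates gave the same contrast. Of the 111 genes ahead by 2 or more conversions, 90 had enough reads in experiment 1 and 85 of these were above 0, against 376 of all 594 genes measured in both. Of the 31 behind, 17 were measured and 16 were below 0, against 218 of 594. Within experiment 1 alone, 17 of the 111 and 1 of the 31 passed the test. By 1 or more conversions, 445 of 515 higher genes and 112 of 118 lower genes kept their sign, where 2615 of all 4615 were above 0. Across the 594 genes the values of both experiments correlated at 0.57 (Spearman). The difference between the experiments was called for 0 of 7652 genes (0%) in either direction by edgeR, with 236 at an unadjusted p under 0.05.

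**Figure D5:**
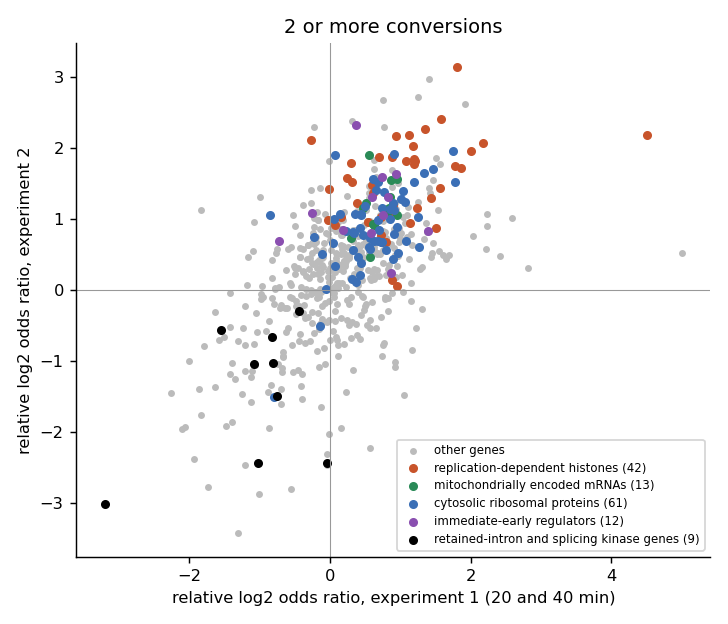
Relative log2 odds ratio (2 or more conversions) of each gene in experiment 2 against experiment 1, with 5 lists coloured and their gene counts in the legend; genes with no footprint read are left out and 1 value past 5 is drawn at 5. All 13 mitochondrially encoded genes lie in the upper right, and all 9 retained-intron and splicing kinase genes drawn lie in the lower left.

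The depth behind these counts sets their reach. Libraries held 26359243 to 48139330 reads in input and 29065324 to 87536081 in footprints, and the deepest was the 30 min footprint library. The list medians without the 30 min lysate were 1.37 for histones, 0.98 for mitochondrially encoded mRNAs, 0.83 for immediate-early regulators, 0.73 for inflammatory genes, 0.63 for ribosomal proteins and −0.72 for retained-intron and splicing kinase genes. Without the 20 min lysate the calls in these lists were 23, 9, 6, 4 and 17 higher and 5 lower, in the same order, and without the 40 min lysate 21, 12, 2, 3 and 15 higher and 1 lower. Fewer new molecules per transcript and fewer labelled bases in each cannot be told apart in these counts.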

How the data were processed

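The deposited files give, per gene and library, raw counts of reads by T positions and T-to-C conversions, read from the file headers; 0 reads had more conversions than T positions. Alignment used Bowtie 0.12.8 and mm10, per the submitters' processing notes. Per the labels' protocols, input was set aside from the lysate that gave the footprints, which pairs the libraries. After removal of material means, libraries of 1 lysate correlated at −0.23 to −0.0039, and input and footprints of different lysates at −0.13 to 0.16. The pairing thus rests on the protocols alone. Converted and unconverted counts were fitted with edgeR 4.0.16 (R 4.3.3) as a pair of columns per library, with terms for library, lysate and material, and the summed converted and unconverted counts as library sizes. SE is the log2 value over the root of F. limma 3.58.1 and DESeq2 1.42.0 were alternatives. Scripts were tested on simulated data. Where no footprint read was seen, 3 counts over the 3 libraries gave the bound, an upper limit. The genes, lists and comparisons were chosen with earlier results of these data known. Genes named include the 12 highest and 12 lowest called by 1 or more conversions. These had 1 sign in all lysates, with 2 or more conversions and within deciles of labelling, and under 1% converted unlabelled. Up to 4 per list were picked by the smallest adjusted p, and not all of those are named. Canx, Hnrnph1, Zfp715, Zfp951 and Zfp958 were outside that rule and were named for their calls by 2 or more conversions. Gm, RIKEN and -ps genes were not named. Intervals and counts carry counting error only. The 95% Wilson interval of the lowest converted share was 0.00804 to 0.0085%. The values of 1 list member are not reported here.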

Additional observations from a re-analysis of the deposited data

How the results depend on the processing

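The log2 odds ratio of all reads (−1.46) was negative under each alternative run: −2.87 with 2 or more conversions, −2.98 with their background subtracted, −2.63 without mitochondrial and histone genes, and −3.17 with background subtracted from 1 or more conversions. Leaving out 1 lysate gave −1.59 to −1.29. For the absolute ratio (13 higher, 5977 lower), counts higher and lower were 0 and 1767 with the unlabelled share of the library subtracted. With that of the gene they were 1 and 2289. They were 0 and 0 without the replicate block, which drops both the pairing by lysate and the labelling time. DESeq2 called 4 higher, limma with a pseudocount of 2 called 30, and genes under 1% conversion without label gave 1. Leaving out a lysate gave 6 to 11 higher and 3564 to 5238 lower. For the relative ratio (576 higher, 142 lower), they were 383 and 62 with DESeq2, 359 and 303 with DESeq2 size factors, 368 and 272 with TMM, 357 and 331 with totals without mitochondrial and histone genes, 367 and 71 with limma, 1 and 0 with the background of the gene and 0 and 0 with that of the library subtracted, and 140 and 14 without the replicate block. The higher count was also 958 with limma at a pseudocount of 2, 229 centred by labelling decile, 195 with the median gene as zero, and 271 without genes converted unlabelled. Leaving out a lysate gave 246 to 432 and 34 to 175. With 2 or more conversions (111 and 31), they were 13 and 16 centred by decile, 50 and 11 with limma and 54 and 9 without the replicate block, and leaving out a lysate gave 12 to 88 and 1 to 31, lowest without the 30 min lysate. By 1 or more conversions, subtracting the library's or the gene's background reversed Eef1a1 (−1.97, library), Lyz2 (−4.82, gene; −4.57, library), Rad23b (−0.42, gene), Slc38a2 (0.23, gene; 0.52, library) and Slc7a5 (−0.53, gene). Centring by decile reversed Ccl3 with 2 or more conversions (−0.057). None of these reversed values passed by limma (adjusted p from 0.52 to 0.97). The cause of these changes was not tested. Over the named genes called with 2 or more conversions, 285 values kept their call, 129 lost it and 1 reversed.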

Other observations

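Genes were also placed in 5 classes of 1624 by how strongly their input was labelled in experiment 1. From the least to the most labelled class, the median relative log2 odds ratio with 2 or more conversions was −0.03, −0.19, −0.28, −0.22 and 0.47. The most labelled class held 66 of the genes ahead and 1 of those behind, over 749 genes tested. With 1 or more conversions the medians were 0.33, 0.14, 0.04, −0.03 and 0.14. Across the 2298 genes, labelling and the relative ratio with 2 or more conversions correlated at 0.21 (Spearman), and footprint density in experiment 1 at 0.03, as a description over genes that share libraries.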
